A study of Sus scrofa with 9 samples.

Results

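The genes described here set the shape and the removal of mitochondria. They are FIS1, MFF, MIEF1, MIEF2 and DNM1L, which act in fission, MFN1, MFN2 and OPA1, which act in fusion, and PINK1 and FUNDC1, which act in mitophagy. They are core genes of these processes whose symbols are in both deposited tables. The rule used function and no measured value, but the genes were chosen with earlier results of these data known, so the count of genes that met a criterion is not that of an unselected list. All 10 were found among the 18933 genes of the first table and the 18992 genes of the second.

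The measured quantity was 5-hydroxymethylcytosine (5hmC), an oxidized form of methylated cytosine in DNA that the TET enzymes make, in cultured mesenchymal stem/stromal cells (MSCs) from the subcutaneous abdominal fat of female domestic pigs that were 3 months old when the diets began. Lean-MSCs came from pigs given standard chow, and Obese-MSCs from pigs given a high-fat/high-fructose diet, each for 16 weeks. A further set of Obese-MSCs was cultured with added vitamin-C, a cofactor of the TET enzymes, at 50 µg/mL for 48 h. By the paper, treated and untreated Obese-MSCs were both grown on from passage 3 for another passage. The paper states that the growth medium of its cell studies itself contains vitamin-C, and that the effect might therefore be underestimated. Each group had 3 libraries, here called by the replicate numbers of the labels, which are Lean 7 to 9, untreated Obese 1 to 3 and vitamin-C 4 to 6. The sources used here do not say which treated and untreated cultures, if any, came from the same animal. In hydroxymethylated DNA immunoprecipitation sequencing (hMeDIP-seq), an antibody against 5hmC pulls down the DNA pieces that hold it for sequencing, and here the reads over the exons of a gene were added up and deposited as normalized counts. The first table holds Obese and Lean libraries and the second holds vitamin-C and untreated Obese libraries. Both tables contain the untreated Obese libraries, normalized separately, so groups were compared only within a table, and the comparisons are not independent of each other.

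Mitochondria constantly divide and fuse. In fission, the GTPase DNM1L (also called DRP1) is recruited from the cytosol to adaptors in the outer mitochondrial membrane, and assembles into a ring that constricts the organelle. In fusion, the mitofusins MFN1 and MFN2 join outer membranes and OPA1 joins inner membranes. Mitophagy is the removal of damaged mitochondria by autophagy, which the kinase PINK1 starts by marking damaged mitochondria, or which receptors such as FUNDC1 start by binding the autophagy machinery directly. In stem cells these processes are known to accompany shifts in metabolism, differentiation and ageing.

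The values of a library summed to 494566 to 522269 in the first table and to 547242 to 593846 in the second, and how many reads lie behind a single value is unknown. The assay reads a DNA mark and not expression, so markers cannot test the cell type. None of the 3 markers that define MSCs (NT5E, THY1 and ENG) met the criteria given below in either comparison. Their Obese to Lean ratios were 1.15, 1.28 and 1.42, and those of vitamin-C to untreated were 0.79, 0.857 and 0.968. Among the 9 markers of macrophages, endothelium and adipocytes, 0 met the criteria between Obese and Lean libraries. Their ratios ran from 0.597 for ADGRE1 to 1.39 for CDH5. Their summed signal was 353 to 399 in the Obese and 348 to 375 in the Lean libraries, with PECAM1, ADIPOQ and CD68 as its largest parts. With vitamin-C 1 of the 9, ADGRE1, met the criteria as low, and the sum was 334 to 421 in the treated and 388 to 443 in the untreated libraries. Of the 3 markers whose proteins MSCs should lack, CD14 was at 0 in all Lean libraries and had a mean of 2.02 in the Obese ones, CD34 had means of 17.8 in Lean and 18.7 in Obese libraries, PTPRC had 59.3 in Lean and 46.9 in Obese libraries, and none met the criteria. Genes whose proteins the cells should lack also had signal, such as PECAM1, with means of 140 and 127 in Obese-MSCs and Lean-MSCs. The source of this signal was not tested.

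The criteria were those of the study, applied gene by gene as a two-sided test at an unadjusted p-value of 0.05 together with a ratio between groups that reached 1.4 (high 5hmC) or fell to 0.7 or below (low 5hmC). Between Obese-MSCs and Lean-MSCs, 1 of the 10 genes, FIS1, had high 5hmC by these criteria and 0 had low 5hmC, where 2.07% of all genes were high and 2.43% were low. The paper, with the same criteria, already names FIS1 among the genes with high 5hmC in Obese-MSCs. The call of FIS1 was therefore known before this count and is no new support for it. As called here, 391 of all genes were high and 461 low, fewer than the study itself reports, and the cause was not tested. Of the 10 genes, FIS1 and MFF were the 2 whose Obese libraries all lay above all Lean libraries, and none showed the opposite. Over all genes, groups did not overlap in 5.7% with Obese higher and in 6.06% with Obese lower. Of the 10 ratios 4 were above 1 and 6 below, with a median log2 ratio of -0.08, beside 0.01 over those genes whose mean was in the upper 80%. With limma on log2(value + 1) and Benjamini-Hochberg adjustment over all 15146 genes in that upper 80%, 0% passed an adjusted p-value of 0.05, and at an unadjusted p-value of 0.05 or less 6.81% passed. Of the 10 genes 7 were high enough to enter this test, 0 of them passed at the adjusted or the unadjusted threshold, and their smallest adjusted p-value was 0.845. FIS1, MIEF2 and FUNDC1 were below the filter.

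**Figure D1:**
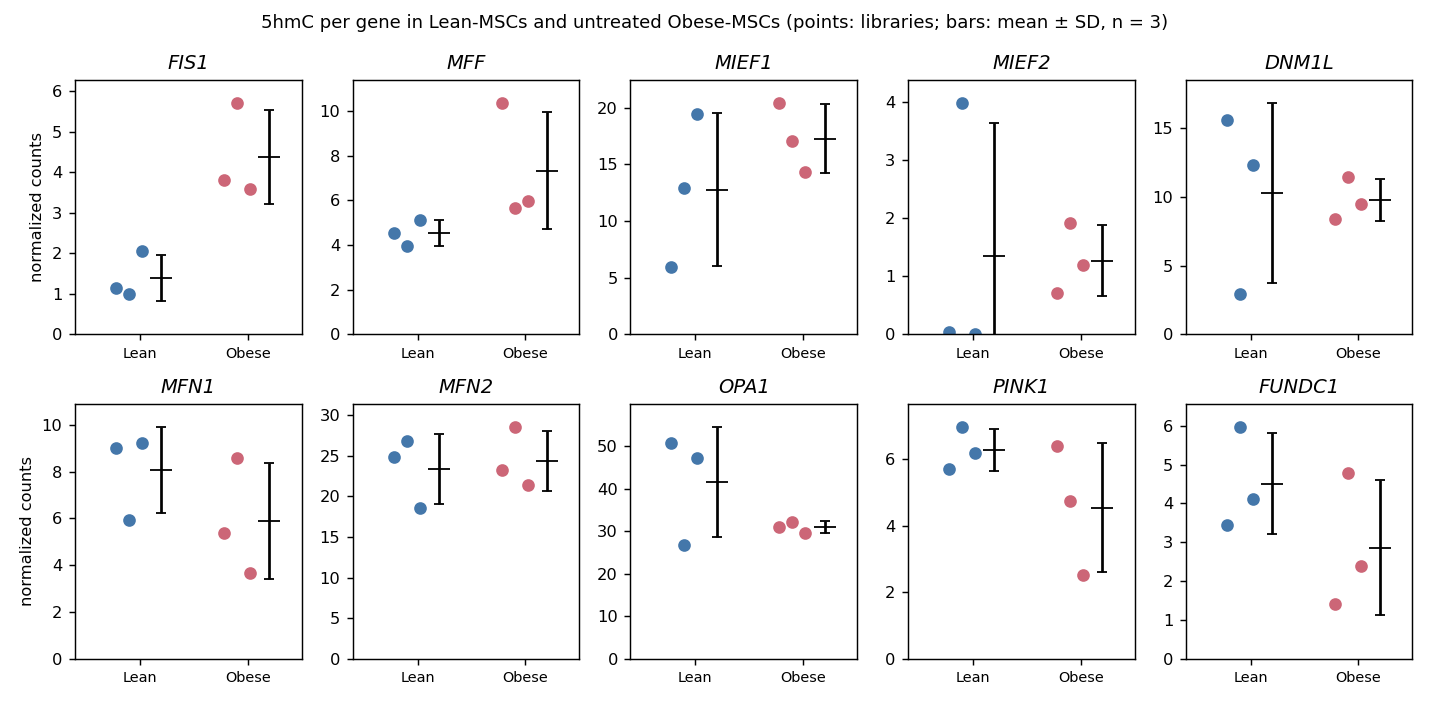
Normalized 5hmC counts (vertical axes, each from 0) of the 10 genes in the 3 Lean libraries (blue) and the 3 untreated Obese libraries (red), with the mean and SD of each group as black bars; the lower end of the MIEF2 bar in Lean lies under 0 and is not drawn. FIS1 and MFF are the panels in which all red points lie above all blue points, and OPA1 and DNM1L in Lean spread far more widely than in Obese.

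FIS1, a small protein anchored in the outer mitochondrial membrane and named for its part in fission, lies on chromosome 3 (Sscrofa11.1, 8938250 to 8942102). Its normalized counts were 3.81, 5.72 and 3.60 in Obese 1, 2 and 3 and 1.155, 0.991 and 2.05 in Lean 7, 8 and 9. The lowest Obese value was thus above the highest Lean value. The means were 4.38 ± 1.16 (SD, n = 3) and 1.4 ± 0.569 (SD, n = 3), a log2 ratio of 1.65, with p = 0.1 in a two-sided exact permutation test, which is the smallest p-value that 3 libraries against 3 can give. The ratio stayed positive without each library in turn, between 1.41 and 2.03 on the log2 scale. FIS1 did not meet the criteria without Lean 7 or without Lean 8. In these bulk cultures, fewer cells carrying the mark and less of the mark in each cell cannot be told apart.

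These were low values, at percentile 15.8 of all genes by mean, a place by signal that also depends on exon length. Apart from values close to 0, such as those of MIEF2 in Lean 7 and Lean 9, the lowest values of each library cluster at a step. This step ran from 0.739 to 1.22 normalized counts over the libraries of the first table, and most low values of the 10 genes lie near whole multiples of it. FIS1 stood at 5.16, 6.10 and 2.96 steps in Obese 1, 2 and 3 and at 0.986, 1.00 and 1.98 steps in Lean 7, 8 and 9. If a step is the worth of 1 read, the Lean values rest on 1 or 2 reads each, and Obese 3 and Lean 9 differ by 1. Over the 10 genes, 34 of the 38 values at up to 10 steps lay within 0.2 of a whole number in the first table and 27 of 34 in the second. The MIEF2 values close to 0 in Lean 7 and Lean 9 are counted among the 34 of the first table. Adding 5 to both group means lowered the log2 ratio of FIS1 to 0.55.

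Set beside all genes with signal in both groups, the FIS1 ratio was at percentile 98.9. Genes of low signal had widely spread ratios. In the tenth of genes by mean that holds FIS1 (2.05 to 3.95 normalized counts), the middle 90% of log2 ratios ran from -1.27 to 1.32, and 2.89% of these genes had high 5hmC by the criteria. With no filter on low values, limma gave FIS1 a log2 difference of 1.17 (95% confidence interval 0.14 to 2.20) on the log2(value + 1) scale, with an adjusted p-value of 0.734 over 18933 genes.

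**Figure D2:**
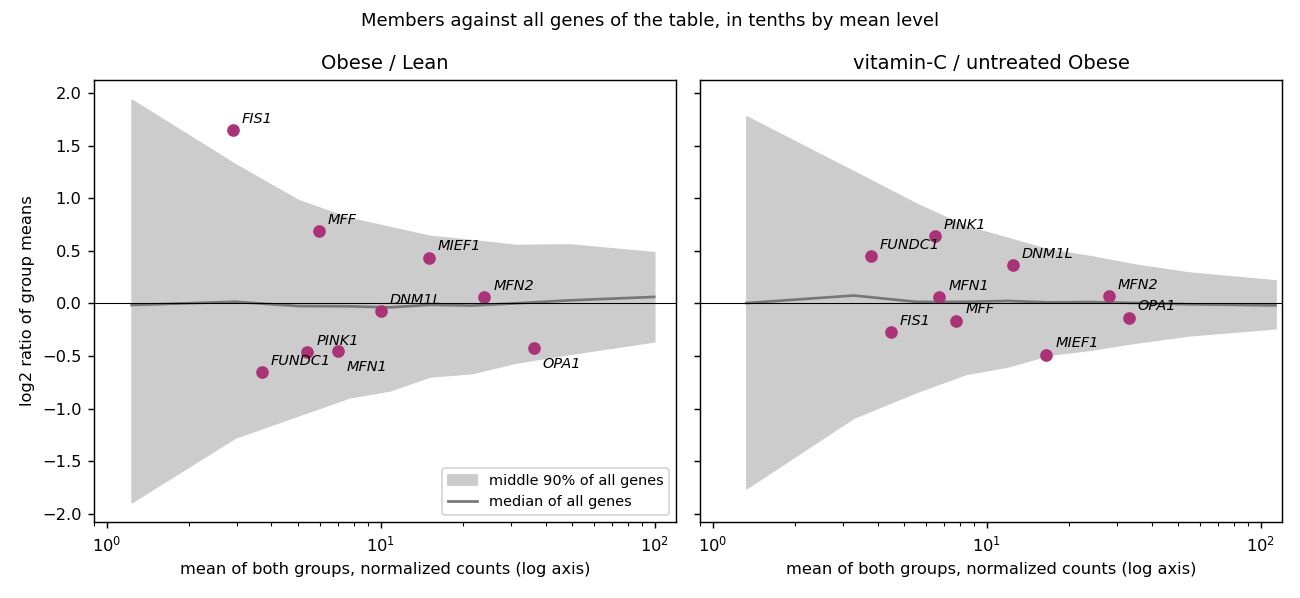
Log2 ratio of group means (vertical axis) against the mean of both groups in normalized counts (horizontal log axis) for 9 of the 10 genes in both comparisons, with the median (line) and the middle 90% (grey) of all genes grouped by mean; MIEF2 is left out because its group means are all under 3. FIS1 in Obese versus Lean lies above the grey band at 1.65, the band is widest at low means, and in the right panel FIS1 lies inside it at -0.27.

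The other fission adaptors were MFF, MIEF1 and MIEF2. MFF, a tail-anchored receptor for DNM1L (chromosome 15, 128768441 to 128799355), had normalized counts of 10.4, 5.65 and 5.99 in Obese 1, 2 and 3 and 4.53, 3.97 and 5.13 in Lean 7, 8 and 9. Groups did not overlap, although Obese 2 was only slightly above Lean 9 and Obese 1 stood far above the rest. The means were 7.34 ± 2.63 (SD, n = 3) and 4.54 ± 0.581 (SD, n = 3), a log2 ratio of 0.69 with an exact permutation p = 0.1. Without each library in turn it ran from 0.36 to 0.85. MFF did not meet the criteria, and limma gave a log2 difference of 0.55 (95% confidence interval -0.36 to 1.46, adjusted p = 0.866).

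MIEF1 (also called MID51, chromosome 5, 8748171 to 8762087) is an outer membrane adaptor that binds DNM1L. Its normalized counts were 20.4, 17.1 and 14.3 in Obese 1, 2 and 3 and 5.92, 12.9 and 19.5 in Lean 7, 8 and 9, so the Lean libraries reached both below and into the Obese range. The log2 ratio was 0.44 (exact permutation p = 0.4) and ran from 0.09 to 0.87 without each library in turn. Its paralog MIEF2 (MID49, chromosome 12, 60461373 to 60475695) had 0.707, 1.91 and 1.20 normalized counts in Obese-MSCs and 0.0396, 3.98 and 0.0088 in Lean-MSCs. Of the Lean values, that of Lean 8 was the highest of all 6 and the other two were near 0. Both means, 1.27 ± 0.604 (SD, n = 3) and 1.34 ± 2.28 (SD, n = 3), were under 3, so no ratio is given. The span of MIEF2 overlaps that of TOP3A, whose exons may not be separable from it.

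DNM1L, the GTPase that drives the constriction (chromosome 5, 41571054 to 41636058), had 8.42, 11.4 and 9.45 normalized counts in Obese 1, 2 and 3 and 15.6, 2.96 and 12.3 in Lean 7, 8 and 9. The Obese values lay inside the Lean range, which Lean 8 opened downwards. The log2 ratio of -0.07 had an exact permutation p = 0.9 and changed sign in 3 of the 6 fits without 1 library, from -0.51 to 0.35. The limma interval, from -0.80 to 1.12, allows a difference in either direction. The span of DNM1L overlaps YARS2, a mitochondrial tyrosine-tRNA ligase gene, which had means of 6.02 in Obese-MSCs and 9.38 in Lean-MSCs without overlap of the groups and did not meet the criteria.

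Of the fusion genes, none met the criteria. OPA1 is the dynamin-like GTPase of the inner membrane that also keeps the cristae in shape (chromosome 13, 130624771 to 130718345). Its normalized counts were 31.1, 32.2 and 29.5 in Obese 1, 2 and 3 and 50.6, 26.8 and 47.2 in Lean 7, 8 and 9. Lean 7 and Lean 9 lay far above all Obese libraries and Lean 8 below them. The log2 ratio was -0.43 (exact permutation p = 0.4) with a limma adjusted p = 0.862. Without Lean 8 the log2 ratio was -0.66, and OPA1 then met the criteria as low.

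MFN1 (chromosome 13, 117404637 to 117441750) had 5.37, 8.59 and 3.69 normalized counts in Obese 1, 2 and 3 and 9.01, 5.95 and 9.23 in Lean 7, 8 and 9. The ranges overlapped through Obese 2 and Lean 8, and the log2 ratio of -0.45 had an exact permutation p = 0.2. MFN2, which also tethers mitochondria to the endoplasmic reticulum (chromosome 6, 72026512 to 72056439), had 23.2, 28.5 and 21.3 against 24.8, 26.8 and 18.5. These were the closest means of the fusion genes, 24.4 ± 3.71 and 23.4 ± 4.33 (SD, n = 3 each), with a log2 ratio of 0.06 (exact permutation p = 0.8). The limma interval of MFN2, from -0.53 to 0.65 on the log2(value + 1) scale, is the range of differences these libraries leave.

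PINK1 and FUNDC1, the mitophagy genes among the 10, had ratios under 1. Of 25 further mitophagy genes, part of the wider list below, 18 had ratios above 1 and 7 below, with a median log2 ratio of 0.22. PINK1 (chromosome 6, 78863195 to 78884663) had 6.38, 4.74 and 2.51 normalized counts in Obese 1, 2 and 3 and 5.69, 6.95 and 6.17 in Lean 7, 8 and 9. The Lean libraries were close together, and Obese 1 lay inside their range while the other Obese libraries lay below it. The log2 ratio was -0.47 (exact permutation p = 0.3). FUNDC1, an outer membrane receptor that binds LC3 under hypoxia (chromosome X, 39726194 to 39737663), had 1.41, 4.79 and 2.40 against 3.46, 5.96 and 4.12. Its log2 ratio of -0.66 was the lowest of the 10, with groups that overlapped through Obese 2 and an exact permutation p = 0.3. Without each library in turn it ran from -1.25 to -0.33.

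In order of the log2 ratio in Obese-MSCs versus Lean-MSCs, FIS1 came first at 1.65, followed by MFF at 0.69, MIEF1 at 0.44, MFN2 at 0.06, DNM1L at -0.07, OPA1 at -0.43, MFN1 at -0.45, PINK1 at -0.47 and FUNDC1 at -0.66. The lowest FIS1 ratio without 1 library, 1.41, was above the highest of every other gene of this order, 0.87 for MIEF1. Neighbours among the other genes did not separate in this way, since their ranges overlapped from each to the next. MIEF2, with both means under 3, has no place in this order. The distance of FIS1 from the others also depends on its low Lean values. With 5 added to both group means, FIS1 was at 0.55, MFF at 0.37 and MIEF1 at 0.33. Whether the difference of FIS1 is larger than that of the others was not tested.

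**Figure D3:**
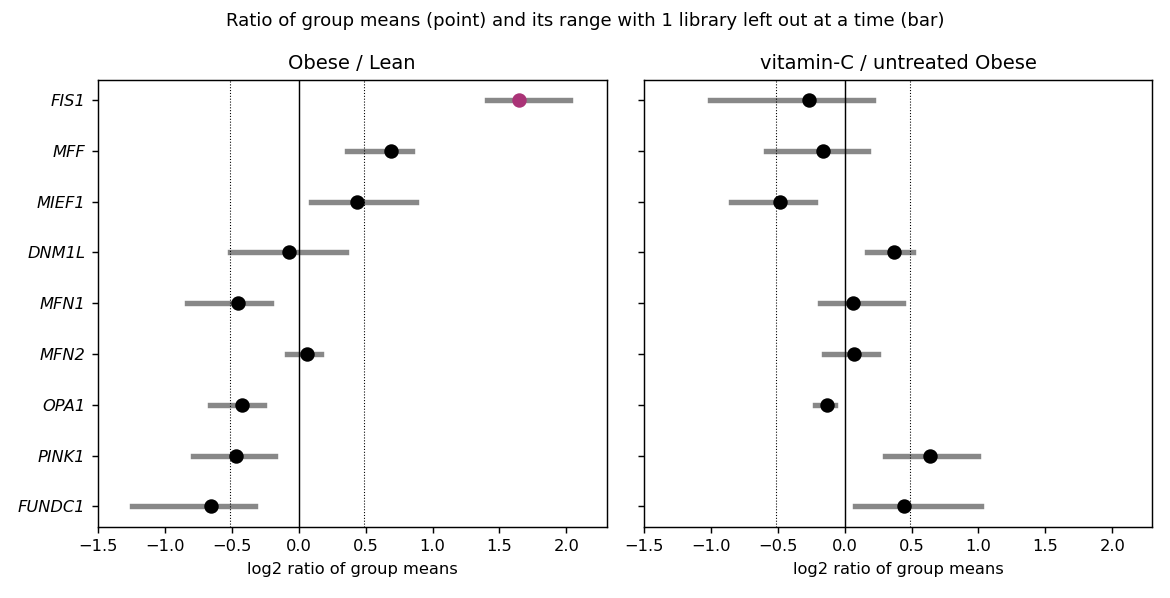
Log2 ratio of group means (point; purple where the criteria were met) for 9 of the 10 genes, with its range when each of the 6 libraries is left out in turn (grey bar); dotted lines mark ratios of 0.7 and 1.4. MIEF2, whose group means are all under 3, is left out. FIS1 in Obese versus Lean, from 1.41 to 2.03, is apart from all other bars of that panel. With vitamin-C its bar, from -1.01 to 0.21, crosses 0.

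After vitamin-C, relative to untreated Obese-MSCs, 0 of the 10 genes met the criteria in either direction, where 1.11% of all genes had high and 0.806% low 5hmC. No gene had groups without overlap, beside 3.24% of all genes with vitamin-C higher and 2.67% with vitamin-C lower. With limma, 0% of 15193 genes passed an adjusted p-value of 0.05 and 0.974% passed an unadjusted p-value of 0.05. Of the 10 genes 8 were high enough to be tested, 0 passed at either threshold, and their smallest adjusted p-value was 1.00. Of the 10 ratios 6 were above 1 and 4 below, with a median log2 ratio of 0.07. The vitamin-C ratios share the untreated libraries with the Obese versus Lean ratios, so an opposite sign in both is not independent evidence, and was not tested.

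**Figure D4:**
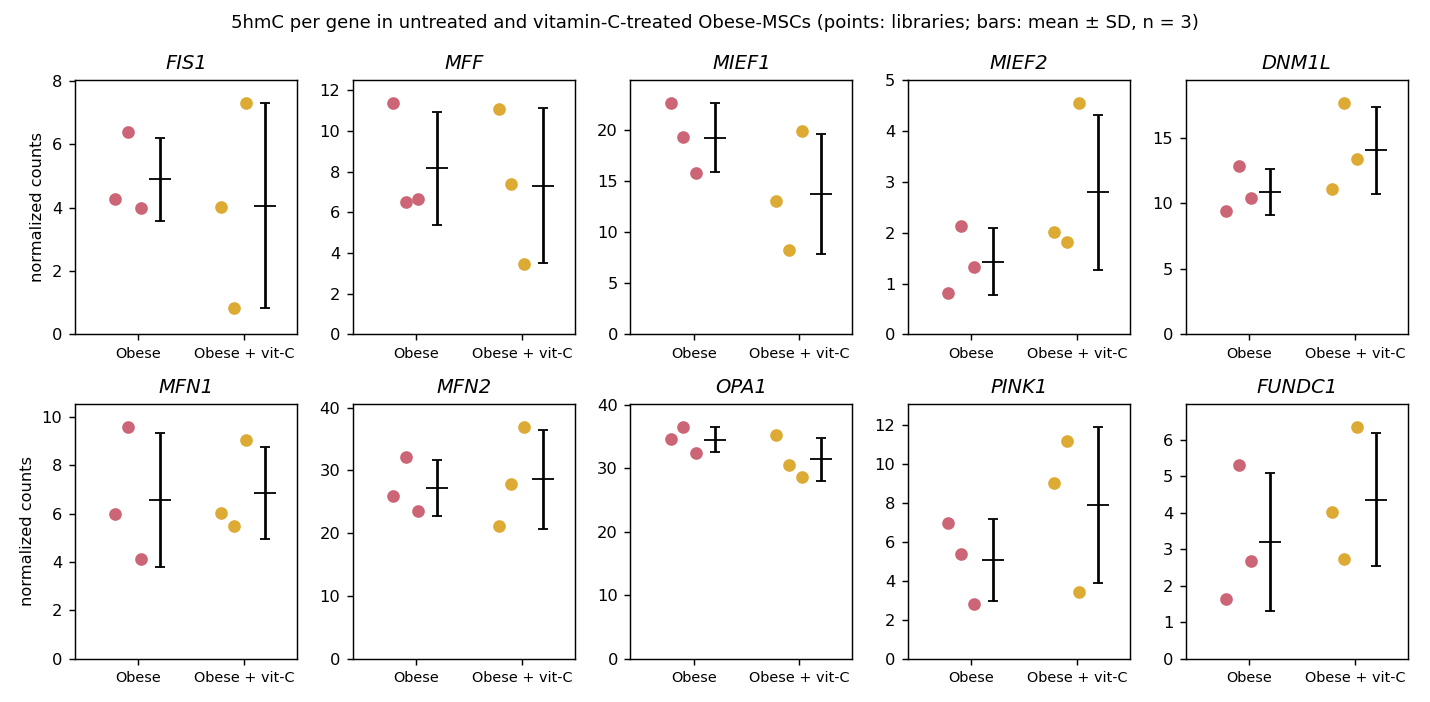
Normalized 5hmC counts (vertical axes, each from 0) of the 10 genes in the 3 untreated Obese libraries (red) and the 3 vitamin-C libraries (yellow), with the mean and SD of each group as black bars. Red and yellow points overlap in all 10 panels, and FIS1 in the vitamin-C group spreads from 0.846 to 7.31.

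FIS1 had normalized counts of 4.02, 0.846 and 7.31 in vitamin-C 4, 5 and 6 and 4.28, 6.40 and 4.00 in untreated Obese 1, 2 and 3. The treated libraries held both the lowest and the highest of the 6 values. The means were 4.06 ± 3.23 and 4.89 ± 1.31 (SD, n = 3 each), a log2 ratio of -0.27 with an exact permutation p = 0.8. Without vitamin-C 5 the log2 ratio was 0.21, and over all 6 omissions the lowest was -1.01. The limma interval, from -1.71 to 0.81 on the log2(value + 1) scale, includes both no difference and differences as large as its ends. In steps of each library, FIS1 was at 3.99, 0.931 and 8.40 in vitamin-C 4, 5 and 6 and at 5.21, 5.88 and 2.93 in untreated Obese 1, 2 and 3.

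**Figure D5:**
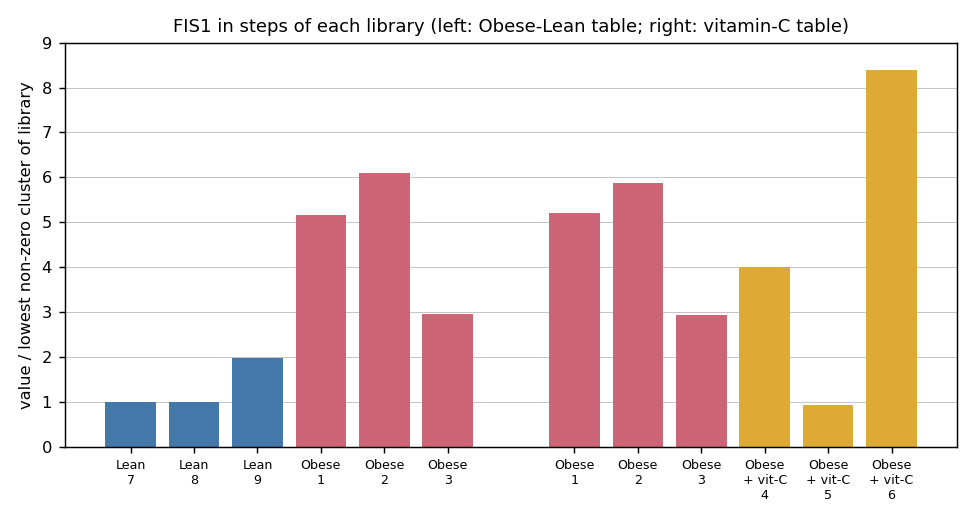
FIS1 value of each library divided by the step of that library, its lowest cluster of values apart from those close to 0 (vertical axis, from 0). The first table is on the left (Lean blue, Obese red) and the second on the right (untreated Obese red, vitamin-C yellow). Bars stand near 1 or 2 in Lean-MSCs and near 3 to 6 in Obese-MSCs, and run from 0.931 to 8.40 with vitamin-C, where the highest does not stand near a whole number.

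The remaining fission genes overlapped between treated and untreated cells. MFF had 11.06, 7.40 and 3.44 normalized counts in vitamin-C 4, 5 and 6 against 11.4, 6.48 and 6.65 in untreated Obese 1, 2 and 3, and its log2 ratio of -0.16 (exact permutation p = 0.9) changed sign in 2 of the 6 omissions. MIEF1 had 13.1, 8.22 and 19.9 against 22.6, 19.3 and 15.8, with a log2 ratio of -0.49, an exact permutation p = 0.3 and a range of -0.85 to -0.22. This was the lowest ratio of the 10 genes, and vitamin-C 6 lay above 2 of the 3 untreated libraries. MIEF2 had 2.01, 1.82 and 4.55 against 0.821, 2.13 and 1.33, with both means under 3 and an exact permutation p = 0.3. DNM1L had 11.07, 17.7 and 13.4 against 9.43, 12.8 and 10.4, a log2 ratio of 0.37 (exact permutation p = 0.2). Its treated and untreated ranges overlapped through vitamin-C 4 and untreated Obese 2, and the ratio kept its sign in all 6 omissions, from 0.17 to 0.51.

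Among the fusion genes the log2 ratios lay between -0.13 and 0.07. MFN1 had 6.04, 5.51 and 9.03 normalized counts in vitamin-C 4, 5 and 6 against 6.01, 9.58 and 4.14 in untreated Obese 1, 2 and 3, a log2 ratio of 0.06 (exact permutation p = 0.9). MFN2 had 21.1, 27.8 and 36.9 against 25.9, 32.1 and 23.5, a log2 ratio of 0.07 (exact permutation p = 0.8). OPA1 had 35.2, 30.5 and 28.6 against 34.6, 36.4 and 32.5, a log2 ratio of -0.13 (exact permutation p = 0.3). For OPA1 the 6 libraries were close together, and the limma interval of -0.70 to 0.43 was the narrowest of the fusion genes.

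PINK1 had the highest ratio of those given. Its normalized counts were 9.05, 11.2 and 3.43 in vitamin-C 4, 5 and 6 and 7.00, 5.36 and 2.84 in untreated Obese 1, 2 and 3. Vitamin-C 4 and 5 lay above all untreated libraries and vitamin-C 6 near the lowest. The means were 7.89 ± 4.01 and 5.07 ± 2.10 (SD, n = 3 each), a log2 ratio of 0.64 with an exact permutation p = 0.3, and the ratio ran from 0.30 to 1.00 without each library in turn. FUNDC1 had 4.03, 2.73 and 6.35 against 1.64, 5.30 and 2.67, a log2 ratio of 0.45 (exact permutation p = 0.5). In order of the log2 ratio FIS1 thus came next to last at -0.27, below MFF and above MIEF1, where it came first in the other comparison.

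The wider list held further genes of these processes, fixed by function, of which 59 were in both tables, with 24 accessory to fission and fusion, 25 of mitophagy, 8 of mitochondrial biogenesis and 2 (BCAP31 and CASP8) that act with FIS1 at the contact with the endoplasmic reticulum. In Obese-MSCs versus Lean-MSCs 1 of the 59, PGAM5, had high 5hmC by the criteria and 0 had low 5hmC, beside 2.07% and 2.43% of all genes. In 3 of the 59 the groups did not overlap with Obese higher and in 1 with Obese lower, beside 5.7% and 6.06% of all genes. Ratios were above 1 for 40 genes and below for 19, with a median log2 ratio of 0.16, where over all 15146 genes above the filter 7680 were above 1 and 7466 below, with a median of 0.01. Of 51 tested by limma 0 passed the adjusted and 1 the unadjusted threshold. PGAM5, a mitochondrial phosphatase that dephosphorylates FUNDC1 and DNM1L, had 7.02, 5.67 and 7.04 normalized counts in Obese 1, 2 and 3 and 4.52, 2.97 and 5.13 in Lean 7, 8 and 9. Its log2 ratio was 0.65 (exact permutation p = 0.1, limma adjusted p = 0.866), and among the 6 omissions of 1 library it met the criteria only without Obese 2 or without Lean 9.

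At the ends of the list, MIGA2, which promotes fusion at the outer membrane, had means of 3.14 in Obese-MSCs and 1.08 in Lean-MSCs, a log2 ratio of 1.55, and the mitophagy receptor homolog FUNDC2 had 1.49 and 0.344, both under 3. SLC25A46, an outer membrane protein of fission and fusion control, had the lowest ratio, with means of 5.15 and 9.78 and a log2 ratio of -0.93 (exact permutation p = 0.2). MUL1, an outer membrane ubiquitin ligase, followed with 2.26 and 3.12 and a log2 ratio of -0.46 (exact permutation p = 0.5).

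With vitamin-C 0 of the 59 genes had high 5hmC by the criteria and 1, MTFP1, had low 5hmC, beside 1.11% and 0.806% of all genes. In 2 of the 59 the groups did not overlap with vitamin-C higher and in 3 with vitamin-C lower, beside 3.24% and 2.67% of all genes. Ratios were above 1 for 27 and below for 32, with a median log2 ratio of -0.01, where over all 15193 genes above the filter 7622 were above 1 and 7571 below. Of 53 tested by limma 0 passed the adjusted and 1 the unadjusted threshold. MTFP1, an inner membrane protein whose loss favours elongated mitochondria, had 13.1, 11.08 and 11.6 normalized counts in vitamin-C 4, 5 and 6 and 19.1, 17.2 and 15.7 in untreated Obese 1, 2 and 3. Every treated library was below every untreated one, with a log2 ratio of -0.54, an exact permutation p = 0.1 and a limma adjusted p = 1.00. MTFP1 did not meet the criteria without vitamin-C 5 or without untreated Obese 1. The highest ratios were those of RHOT2, a GTPase that links mitochondria to motor proteins (6.55 against 2.64, log2 ratio 1.31, exact permutation p = 0.2), and BNIP3, a mitophagy receptor (7.24 against 3.30, log2 ratio 1.13, exact permutation p = 0.2). The lowest were those of FUNDC2, with both means under 3, and GDAP1, a fission factor (1.86 against 3.64, log2 ratio -0.97, exact permutation p = 0.2).

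The closest genes on the chromosome were looked at after the other values were known. CLDN15, a tight junction gene that ends 1061 bp from FIS1, had an Obese mean of 23.0 ± 1.54 and a Lean mean of 20.8 ± 7.00 (SD, n = 3 each) and a log2 ratio of 0.15, and IFT22 on the other side at 35395 bp had 0.10. Neither met the criteria and both had overlapping groups. Of the neighbours of the other genes, MIIP beside MFN2 had high 5hmC in Obese-MSCs (6.25 against 3.12, log2 ratio 1.00) while MFN2 itself did not meet the criteria. DDOST, 605 bp from PINK1, had low 5hmC in Obese-MSCs with means of 1.07 and 5.93 (log2 ratio -2.47), where the Obese mean is near 1 step. MIIP and DDOST are named because they met the criteria, which no other neighbour did in either comparison. Over all genes, 2.07% were high and 2.43% low in Obese-MSCs.

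The genes whose values followed FIS1 most closely were found by Pearson's r over the 6 libraries of each table, taking the smaller of both values, among 9123 genes whose mean was in the upper 50% of each table. They were PTGER4, a prostaglandin receptor gene (r of 0.953 and 0.965), LOC100739163 (0.938 and 0.944) and DPF3, a chromatin remodelling subunit gene (0.932 and 0.91). With 6 libraries, 3 of them in both tables, and so many genes searched, these values are a description only. Of the other 9 genes of fission, fusion and mitophagy, MIEF1 followed FIS1 most closely by the same measure, with an r of 0.61 in the first table and 0.88 in the second. MFF had 0.64 and -0.35, and PINK1 had -0.48 and -0.68.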

How the data were processed

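hMeDIP-seq libraries of swine MSCs (3 groups of 3, assigned from the submitters' labels) were analysed from 2 deposited tables. For these, the authors aligned reads with Bowtie 2 (2.3.3.1) to susScr 11.1, removed duplicates with PICARD (1.67), counted reads over exons per gene with htseq-count (0.9.1) and processed the counts with edgeR (3.28.1). The deposited signal is thus a fractional normalized count per gene, to which no count test was applied. All value columns were used. Of the values of the second table, 645 that were numerical residue around 0 (below 1e-06) were set to 0.

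Here, the study's criteria, limma 3.58.1 (R 4.3.3, log2(value + 1), trend on the mean, upper 80% of genes by mean, Benjamini-Hochberg adjustment over all genes tested) and two-sided exact permutation tests over 20 arrangements were computed within each table, with scipy 1.17.1. The criteria were applied as calls only. Log2 ratios of group means have no pseudocount, and none was given where both means were under 3. Positions are those of Sscrofa11.1, matched by symbol, and neither sequences nor exon lengths were used. A gene's mean signal, used to filter and to place genes by signal, therefore also depends on exon length. The procedure was also run on simulated data, but no outcome of that run is given here. The run therefore lends no support to the call of FIS1 or to any other result. Named genes were the 10 core genes, genes of the wider list that met the criteria, and otherwise its 2 highest and 2 lowest ratios. The members and lists were chosen with earlier results of these data known. The study describes its swine samples as 3 per group from pigs, but the labels name no animal for a library, so p-values measure the spread between libraries, which may be partly technical. A change of 5hmC common to all genes would not be visible after normalization.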

Additional observations from a re-analysis of the deposited data

How the results depend on the processing

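FIS1 in Obese-MSCs versus Lean-MSCs was the only one of the 10 genes to meet the criteria. At a p-value threshold of 0.01 the count was 0, and without single libraries it was 0 to 1 (0 without Lean 7, and OPA1 in place of FIS1 without Lean 8). Unequal variances, log2 values, size-factor rescaling and quantile normalization each left a count of 1. The log2 ratio of FIS1 was 1.64 with size factors, 1.81 after quantile normalization, 1.16 with a pseudocount of 1, 0.55 with a pseudocount of 5 and 1.41 to 2.03 without single libraries. In the wider list the count of 1 became 0 at a threshold of 0.01, 0 on the log2 scale, and 0 to 3 without single libraries. The 2 without Obese 3 were TOMM7 and FBXO7, the 1 without Obese 1 was RHOT2, and the 3 without Lean 9 were PGAM5, ULK1 and CASP8. With vitamin-C the count of 10 genes was 0 under every alternative, and that of the wider list 0 to 3 without single libraries (0 without vitamin-C 5, 3 without vitamin-C 6 and 3 without untreated Obese 3). No limma alternative passed any of the 10 genes that entered it, with smallest adjusted p-values of 0.734 to 0.856 in the first comparison, single-library omissions apart. The 0.734 is that of FIS1 with no filter on low values, since the main fit of that comparison did not include FIS1. The cause of these changes was not tested. No paired analysis was made, because the labels do not say which treated and untreated cultures, if any, came from the same animal. If some did, the vitamin-C comparison leaves that pairing out. FIS1, MIEF2 and FUNDC1 had low signal, below the filter in the first table.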
